A study of Drosophila melanogaster with 8 samples.

Results

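The proteasome is described here through the genes of its subunits in the midguts of old female flies. Members were all genes of the deposited table whose symbol begins with Prosalpha, Prosbeta, Rpt or Rpn followed by a digit. This rule found 43 genes of the 19299 features listed and used no measured value. Of these, 32 are canonical subunits, with 7 in the alpha ring, 7 in the beta ring, 6 Rpt and 12 Rpn genes. The other 11 are paralogs, whose symbols carry a T or an R after the digit. The midguts came from flies fed 10 µM quercetin (Que), a plant flavonoid with antioxidant activity, or DMSO, its solvent, with 4 samples per group. Feeding began on day 26 and lasted 14 days, and the sample labels give the age as 40 to 50 days. The genotype is given only as WT in both groups, and each sample held 200 pooled midguts. The comparison asks whether RNA levels in aged midguts differed with Que feeding.

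The 26S proteasome degrades proteins that carry chains of ubiquitin. Its 20S core is a barrel in which outer rings of alpha subunits gate the entry and inner rings of beta subunits hold the proteolytic sites. The 19S regulatory particle caps the core, where Rpt ATPases unfold substrates and Rpn subunits bind and remove ubiquitin. In the midgut epithelium, which is renewed by intestinal stem cells, this machinery takes part in the turnover of damaged proteins. In flies, several paralogs are known to be expressed mainly in the testis, where they replace canonical subunits in male germ cells.

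Levels are given as RPKM, read numbers scaled to gene length in kilobases and to the 1000000 of reads assigned in the sample. The assigned reads numbered 27253832 in Que 3, the shallowest sample, and up to 35619139 in the others. The canonical members held between 412 and 22528 reads in any sample, so counting error was small for them. Their sum was 0.422%, 0.423%, 0.506% and 0.440% of the assigned reads in Que 1 to 4, against 0.466%, 0.445%, 0.465% and 0.442% in DMSO 1 to 4. Que 3 stood above all other samples, and the remaining Que samples stood below all 4 DMSO samples. These shares averaged 0.448% ± 0.0396 with Que and 0.455% ± 0.0130 with DMSO (SD, n = 4 per group). The midgut label was checked against markers of its cells. The summed level of 6 enterocyte markers was 8132 to 10732 RPKM in Que samples and 6955 to 8442 RPKM in DMSO samples. That of 5 progenitor markers was 33.7 to 55.9 RPKM with Que and 47 to 53.1 RPKM with DMSO. These sums were led by Jon65Aiv (mean 4973 RPKM) and esg (mean 18.2 RPKM) and can hide single markers. By mean log2 level, 4 enterocyte markers were higher with Que and 2 lower, and 1 progenitor marker was higher and 4 lower. The sums for enteroendocrine cells, visceral muscle, fat body and Malpighian tubule also overlapped between the groups, and the part of cell composition in the results was not tested. Samples are bulk tissue, in which fewer cells of a type and less RNA per cell cannot be told apart. The labels do not say whether the samples of a group came from separate cultures of flies, so the p-values measure only the spread between these samples.

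The canonical genes are dispersed over the genome, with 4 on chromosome 2L, 10 on 2R, 5 on 3L, 9 on 3R and 4 on X. All 43 members matched a RefSeq gene by symbol, with the same start and end on Release 6 plus ISO1 MT, the build on which positions are given. No member sequence was used here.

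The canonical subunits were all expressed in every sample, although their levels differed up to 16.4-fold between genes. In the alpha ring, the mean over the 8 samples was highest for Prosalpha3, with 167 RPKM, followed by Prosalpha4 with 150 RPKM and Prosalpha5 with 147 RPKM. These 3 neighbours overlapped in range, and Prosalpha3 was above Prosalpha4 in 6 of 8 samples. Prosalpha1 at 87.4 RPKM, Prosalpha7 at 68.8 RPKM, Prosalpha2 at 51.7 RPKM and Prosalpha6 at 31.7 RPKM followed in the same order in each of the 8 samples. The ring's subunits take fixed places in the complex, and the RNA levels of its highest and lowest members differed 5.27-fold.

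In the beta ring, Prosbeta5, which carries the chymotrypsin-like site, led with 170 RPKM. Prosbeta1, with the caspase-like site, had 84.3 RPKM, and Prosbeta2, with the trypsin-like site, had 64.3 RPKM. The 3 catalytic subunits were thus above the 4 others in mean level. Among the subunits without an active site, Prosbeta4 and Prosbeta6 had 44.4 and 43.5 RPKM, and Prosbeta4 was the higher of them in only 4 of 8 samples. Prosbeta7 had 31.8 RPKM and Prosbeta3 had 26.1 RPKM, the lowest level of the 32 genes, with Prosbeta7 above in 6 of 8 samples.

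The Rpt ATPases form a ring of 6 different subunits in the base of the 19S particle. Rpt5 was above the other 5 in every sample, with a mean of 190 RPKM over the 8 samples. Rpt2 at 131 RPKM, Rpt1 at 126 RPKM and Rpt3 at 122 RPKM did not keep their order across samples, with Rpt1 above Rpt3 in 4 of 8. Rpt6 had 106 RPKM and was below Rpt3 in all 8 samples, although in Que 3 it was above Rpt1 (122 against 110 RPKM). Rpt4 had 51.2 RPKM and was below Rpt6 in all 8 samples.

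Of the Rpn genes, Rpn7, which encodes a scaffold subunit of the lid, had the highest level of the 32 canonical members, with 428 RPKM over the 8 samples. This was 2.65 times the level of the next Rpn gene, Rpn8, with 162 RPKM. Rpn8 is the lid subunit that pairs with Rpn11, the deubiquitinase that removes ubiquitin chains from substrates. Rpn11 had 90.4 RPKM, next to the lid subunit Rpn6 with 88.2 RPKM and the large base scaffold Rpn2 with 86.8 RPKM, and the order of these 3 neighbours was kept in 4 and 3 of 8 samples. Rpn1, the other base scaffold, had 74.7 RPKM. The ubiquitin receptors Rpn10 and Rpn13 had 63.8 and 63.7 RPKM and were not separable. Rpn5, Rpn12 and Rpn3, all of the lid, had 65.3, 59.1 and 58.7 RPKM. Rpn9, also of the lid, was the lowest Rpn gene with 40.0 RPKM and was below Rpn3 in all 8 samples.

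**Figure D1:**
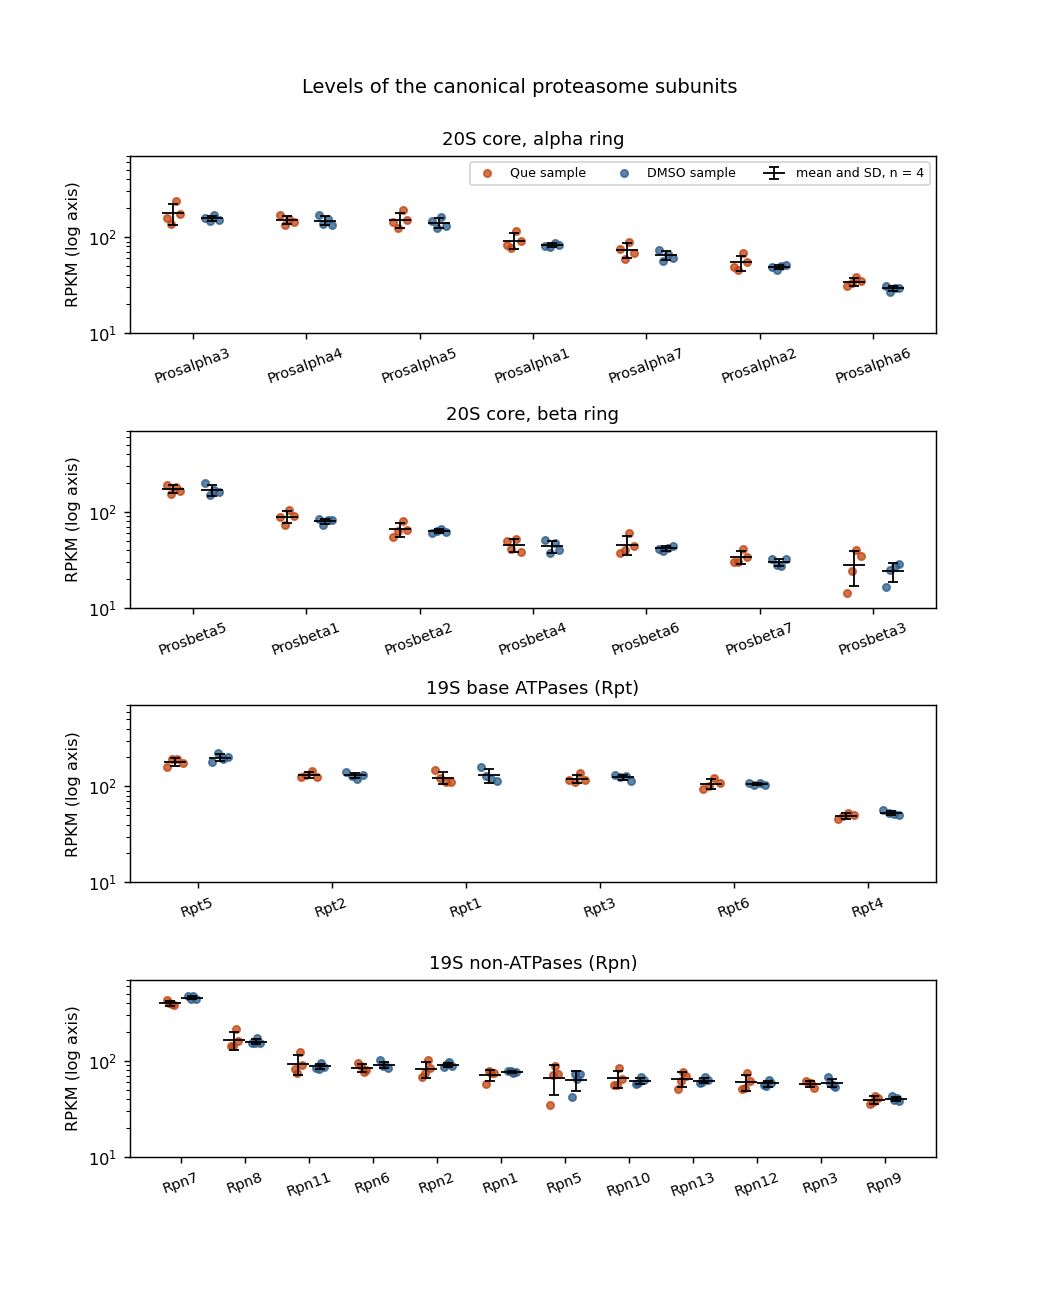
RPKM (log axis) of the 32 canonical subunits in each sample, by class and in order of mean level, with Que samples left of DMSO samples and bars for the mean and SD (n = 4 each). Rpn7 stands above the other canonical members at 428 RPKM, and Prosbeta3 is lowest at 26.1 RPKM.

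The Que group was compared with the DMSO group by limma on log2(RPKM + 0.1) over the 13249 genes whose mean reached 0.1 RPKM. All 32 canonical members and 4 paralogs were tested. None of these 36 members passed an adjusted p of 0.05, and 0% of all genes tested did, with adjusted p = 0.946 or higher for every member by limma with Benjamini-Hochberg adjustment. By voom on the recovered reads, 0 members passed the adjusted and 0 the unadjusted p of 0.05. At an unadjusted p of 0.05 by limma on RPKM, 1 member was higher with Que, Prosalpha6, where 1.68% of all genes tested were higher, and 1 was lower, Rpn7, where 1.93% were lower. Likewise, Prosalpha6 was the only member with all 4 Que samples above all 4 DMSO samples, which 0.876% of genes showed. Rpn7 was the only one with all 4 Que samples below, which 1.26% of genes showed. These counts are small, and 1 of 36 members in a direction is near the background share. The 95% intervals of the log2 fold change included 0 for 30 of the 32 canonical genes. Apart from Rpn5 and Prosbeta3, every interval lay between -0.45 and 0.50, so changes larger than these were outside the intervals of the other 30 genes.

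**Figure D2:**
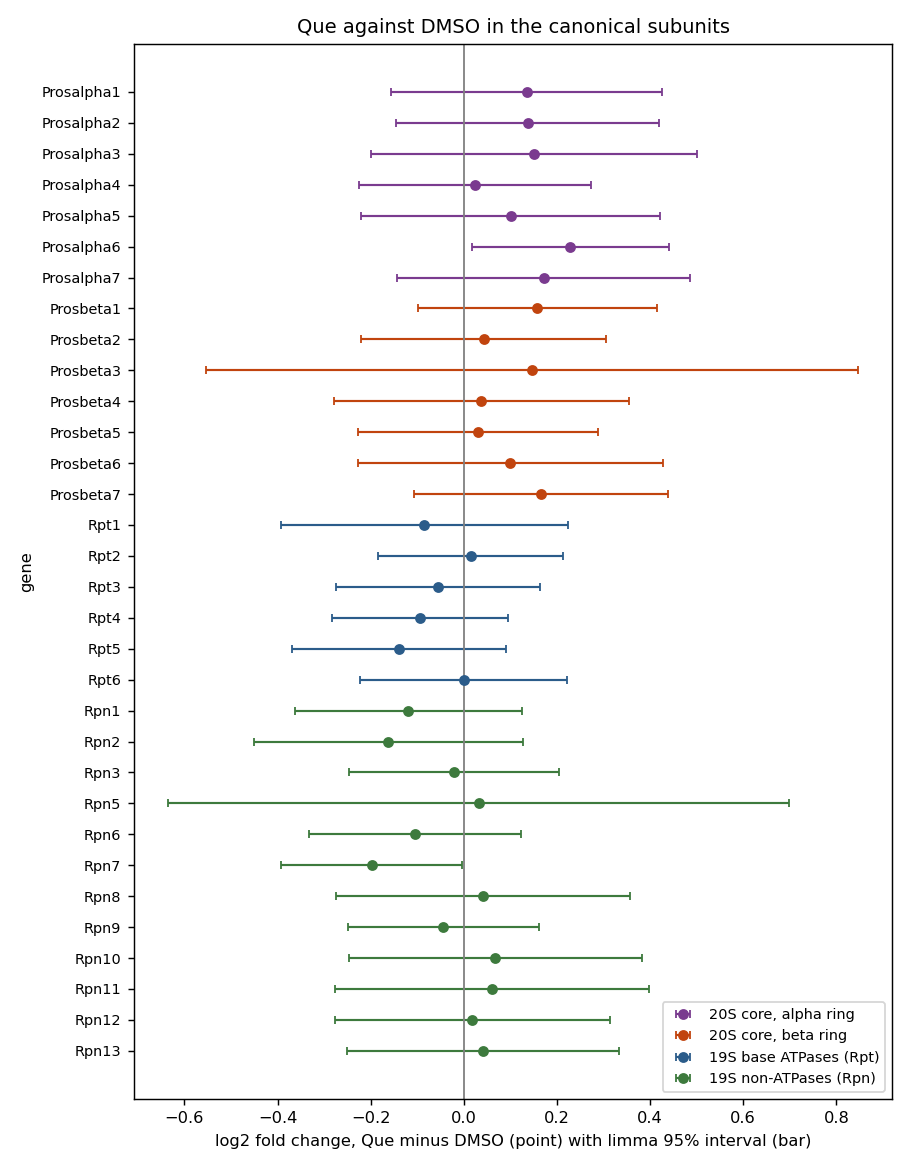
Log2 fold change, Que minus DMSO (x axis), of each canonical subunit (rows) with its limma 95% interval, coloured by class. All 14 core subunits lie right of 0, and only the intervals of Prosalpha6 and Rpn7 leave out 0.

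Prosalpha6 (Dmel_CG4904, chromosome 2L, 10221351 to 10222546) is one of the outer ring subunits. It had 31.2, 33.0, 38.1 and 34.9 RPKM in Que 1 to 4, against 30.7, 26.6, 29.8 and 29.8 RPKM in DMSO 1 to 4. The groups did not overlap, although Que 1 and DMSO 1 were close. Means were 34.3 ± 2.94 RPKM in Que guts and 29.2 ± 1.82 RPKM in DMSO guts (SD, n = 4 per group). The log2 fold change was 0.23 (SE 0.094, 95% interval 0.018 to 0.44), with unadjusted p = 0.0366 and adjusted p = 0.946 by limma. The exact two-sided permutation test gave p = 0.0286, the smallest its 70 arrangements allow. The unadjusted limma p ranged between 0.0178 and 0.101 when each sample was left out and was 0.101 without DMSO 2.

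The other 6 alpha genes also had positive fold changes, and in each the groups overlapped. Prosalpha7 had 75.7, 59.0, 89.5 and 68.3 RPKM in Que samples, against 72.9, 56.6, 67.5 and 60.9 RPKM in DMSO samples, a log2 fold change of 0.17 (SE 0.14). Prosalpha3 had 159, 138, 237 and 175 RPKM in Que samples and 158, 149, 172 and 149 RPKM in DMSO samples, a log2 fold change of 0.15 (SE 0.16). In Prosalpha3 and Prosalpha7 the highest value was that of Que 3, while Que 2 and DMSO 2 held the lowest values of their groups. Prosalpha2 averaged 54.4 ± 9.69 RPKM in Que guts and 49.0 ± 2.62 RPKM in DMSO guts (SD, n = 4 per group), and Prosalpha1 averaged 92.0 ± 17.5 RPKM in Que guts and 82.8 ± 3.87 RPKM in DMSO guts (SD, n = 4 per group). Both had a log2 fold change of 0.14 (SE 0.13). Prosalpha5 and Prosalpha4 had smaller ones, 0.10 (SE 0.14) and 0.02 (SE 0.11). None of these 6 passed the test at an unadjusted p of 0.05. RefSeq names a related gene Prosalpha1R, listed in the table as CG30382, and whether reads are shared between it and Prosalpha1 was not tested. CG30382 had 15.0 ± 1.70 RPKM in Que guts and 15.5 ± 1.74 RPKM in DMSO guts (SD, n = 4 per group).

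The 7 beta genes had positive fold changes as well, and none passed the test. Prosbeta7 had 30.1, 30.0, 40.8 and 33.9 RPKM in Que samples, against 32.3, 28.1, 27.1 and 31.9 RPKM in DMSO samples. Its log2 fold change of 0.17 (SE 0.12) was the largest of the ring. Among the catalytic subunits, Prosbeta1 had 88.3, 73.6, 103 and 91.4 RPKM in Que samples and 83.1, 72.0, 81.4 and 81.5 RPKM in DMSO samples, a log2 fold change of 0.16 (SE 0.11). Here 3 of the 4 Que samples were above all DMSO samples, and Que 2 was not. Prosbeta5 had 190, 153, 180 and 165 RPKM in Que samples, against 198, 149, 168 and 159 RPKM in DMSO samples, and its log2 fold change of 0.03 (SE 0.11) changed sign when Que 1 or DMSO 2 was left out (-0.018 and -0.025). Prosbeta2 had 54.2, 63.5, 79.6 and 64.8 RPKM in Que samples and 60.5, 63.6, 66.0 and 62.0 RPKM in DMSO samples, a log2 fold change of 0.04 (SE 0.12). The 95% intervals of the 3 catalytic subunits were -0.10 to 0.41 for Prosbeta1, -0.22 to 0.31 for Prosbeta2 and -0.23 to 0.29 for Prosbeta5. Among the structural subunits, Prosbeta6 had a log2 fold change of 0.10 (SE 0.15) and Prosbeta4 one of 0.04 (SE 0.14).

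All 14 core genes thus had a log2 fold change above 0, which 47% of all genes tested had. Their median was 0.14, against -0.016 over all genes tested. This is a count of directions and not of changes, since only Prosalpha6 had an unadjusted p under 0.05. The direction rested largely on 1 sample. Que 3 was the highest of the 8 samples in 12 of the 14 core genes, and DMSO 2 was the lowest in 6. In deviation from each gene's own mean, the core median was -0.03, -0.15, 0.38 and 0.06 (log2) in Que 1 to 4, against -0.03, -0.17, 0.0027 and -0.07 in DMSO 1 to 4. Without Que 3, 9 of the 14 core genes were above 0 and their median was 0.0082, with 0.015 for the alpha ring and -0.035 for the beta ring. Without Que 2, the core median was 0.21 and all 14 stayed above 0.

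**Figure D3:**
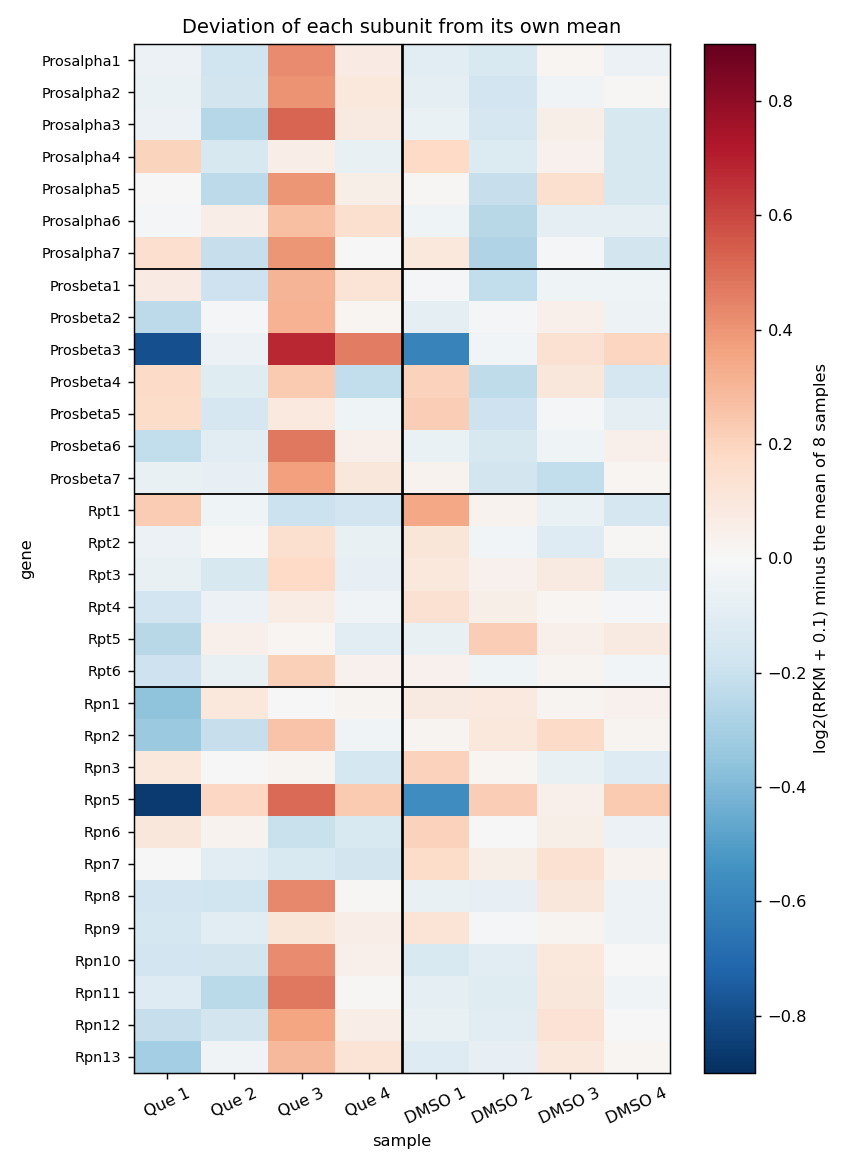
Deviation of each canonical subunit (rows, by class) from its own mean over the 8 samples, on the log2(RPKM + 0.1) scale, with Que samples left of the vertical line and DMSO samples right of it. Red is above the mean and blue below. Que 3 is above the mean in 29 of the 32 genes, and Prosbeta3 and Rpn5 are low in replicate 1 of both groups.

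The Rpt ATPases leaned the other way, with 1 of 6 above 0 and a median log2 fold change of -0.07. No gene of them had an unadjusted p under 0.05. Rpt5 had 159, 195, 192 and 177 RPKM in Que samples, against 181, 220, 195 and 200 RPKM in DMSO samples. The groups overlapped, and its log2 fold change of -0.14 (SE 0.10, 95% interval -0.37 to 0.090) was the lowest of the ATPases. Rpt4 had 45.3, 49.3, 53.4 and 50.1 RPKM in Que samples and 56.3, 53.0, 51.8 and 50.4 RPKM in DMSO samples, a log2 fold change of -0.10 (SE 0.084). Only Que 3 among the Que samples exceeded any DMSO sample in Rpt4. Rpt1, Rpt3, Rpt6 and Rpt2 had log2 fold changes of -0.08, -0.06, -0.00046 and 0.01. Rpt6 averaged 106 RPKM in both groups, with an SD of 12.6 with Que and 2.62 with DMSO (n = 4 each). Without Que 3, all 6 were below 0, with a median of -0.10.

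Rpn7 (Dmel_CG5378, chromosome 3R, 22460662 to 22462054) had 427, 400, 388 and 381 RPKM in Que 1 to 4, against 480, 443, 470 and 437 RPKM in DMSO 1 to 4. Every Que sample was below every DMSO sample, and the nearest were Que 1 and DMSO 4. Means were 399 ± 20.6 RPKM in Que guts and 458 ± 20.4 RPKM in DMSO guts (SD, n = 4 per group). Its log2 fold change was -0.20 (SE 0.086, 95% interval -0.39 to -0.0041), with unadjusted p = 0.0463 and adjusted p = 0.946 by limma. The exact two-sided permutation test gave p = 0.0286. Left-out samples moved the unadjusted limma p between 0.023 and 0.106, with 0.106 without Que 4. In Que 3, in which most members were high, Rpn7 was not. The gene shares 88 of its bases with CG34376 on the opposite strand, which held 4434 reads per sample on average against 19464 for Rpn7. The strand setting of the counting is not given in the sources used here, so reads of such overlaps are uncertain.

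Of the other 11 Rpn genes, none had an unadjusted p under 0.05 with all samples. Rpn2, which forms the base scaffold together with Rpn1, had 68.1, 74.5, 103 and 84.1 RPKM in Que samples, against 87.5, 92.0, 97.2 and 87.8 RPKM in DMSO samples. Here 3 Que samples were below all DMSO samples, whereas Que 3 was above them. The log2 fold change was -0.16 (SE 0.13) with unadjusted p = 0.236 by limma, and without Que 3 it was -0.27 with unadjusted p = 0.0191 and adjusted p = 1. Rpn9 had 35.8, 37.4, 43.1 and 41.5 RPKM in Que samples and 43.4, 39.6, 40.7 and 38.7 RPKM in DMSO samples, and its log2 fold change of -0.04 (SE 0.091) was 0.00099 without Que 1. Rpn1 averaged 71.8 ± 9.51 RPKM in Que guts and 77.5 ± 1.71 RPKM in DMSO guts (SD, n = 4 per group), with Que 1 at 57.9 RPKM and the other 7 samples between 74.6 and 79.3 RPKM. The lid subunit Rpn6 averaged 85.1 ± 8.42 RPKM in Que guts and 91.4 ± 7.22 RPKM in DMSO guts (SD, n = 4 per group), and Rpn3 averaged 58.2 ± 4.19 RPKM in Que guts and 59.1 ± 6.10 RPKM in DMSO guts (SD, n = 4 per group). The deubiquitinase Rpn11 and its partner Rpn8 had log2 fold changes of 0.06 (SE 0.15) and 0.04 (SE 0.14). The ubiquitin receptors Rpn10 and Rpn13 had 0.07 (SE 0.14) and 0.04 (SE 0.13), and the lid subunit Rpn12 had 0.02 (SE 0.13). These 5 genes shared the pattern of Que 3, with 124, 216, 85.0, 77.4 and 74.9 RPKM for Rpn11, Rpn8, Rpn10, Rpn13 and Rpn12 in that sample, the highest of the 8 in each.

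Across the 18 genes of the 19S particle, 7 were above 0 and 11 below, with a median log2 fold change of -0.03. Que 1 was the lowest of the 8 samples in 10 of these genes and Que 3 the highest in 10. Without Que 3, all 18 were below 0, with a median of -0.09, and without Que 1, 9 were above 0 and 9 below, with a median of -0.0094. The 12 Rpn genes were split 6 and 6, with a median of -0.0011. Over all 32 canonical members, 21 were above 0 with a median of 0.03, and without Que 3, 9 were above 0 with a median of -0.05.

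The core and the regulatory particle were also compared by the sum of their RPKM in each sample. The sum over the 14 core genes divided by the sum over the 18 genes of the particle was 0.637, 0.543, 0.668 and 0.618 in Que 1 to 4, against 0.570, 0.506, 0.565 and 0.546 in DMSO 1 to 4. It averaged 0.617 ± 0.0531 with Que and 0.547 ± 0.0292 with DMSO (SD, n = 4 per group). In 3 Que samples the ratio was above all DMSO samples, and in Que 2 it was below 3 of them. The core genes are shorter, with a median of 971 bases against 1589 for the particle. No ratio was computed with the length trend removed, and the part of gene length in it was not tested. The summed level itself was alike, with 3175 ± 305 RPKM in Que guts and 3174 ± 111 RPKM in DMSO guts over the 32 genes (SD, n = 4 per group).

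Gene length differed between these groups of subunits and moved with the values. The core genes were 815 to 1215 bases long with a median of 971, the genes of the 19S particle were 995 to 3412 bases long with a median of 1589, and the median of all genes tested was 1667 bases. Within samples, deviations from the mean were related to length across 8783 genes. Spearman's rho was -0.30, 0.52, -0.38 and 0.020 in Que 1 to 4 and -0.042, 0.48, 0.041 and 0.15 in DMSO 1 to 4, as a description in which genes are not independent. Short genes were therefore relatively high in Que 1 and Que 3 and relatively low in Que 2 and DMSO 2. With each sample's length trend removed, 10 of the 14 core genes were above 0 with a median of 0.08, 6 of 7 in the alpha ring and 4 of 7 in the beta ring. The same fit left 6 of the 18 genes of the particle above 0 with a median of -0.04, and 16 of all 32 canonical genes with a median of -0.0028. Prosalpha6 had a log2 fold change of 0.18 and Rpn7 one of -0.23 in this fit. The core median in Que 3 was then 0.25, against values between -0.09 and 0.05 in the other 7 samples, so this sample stayed apart. The part of the length trend in the fold changes was not tested beyond this fit.

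**Figure D4:**
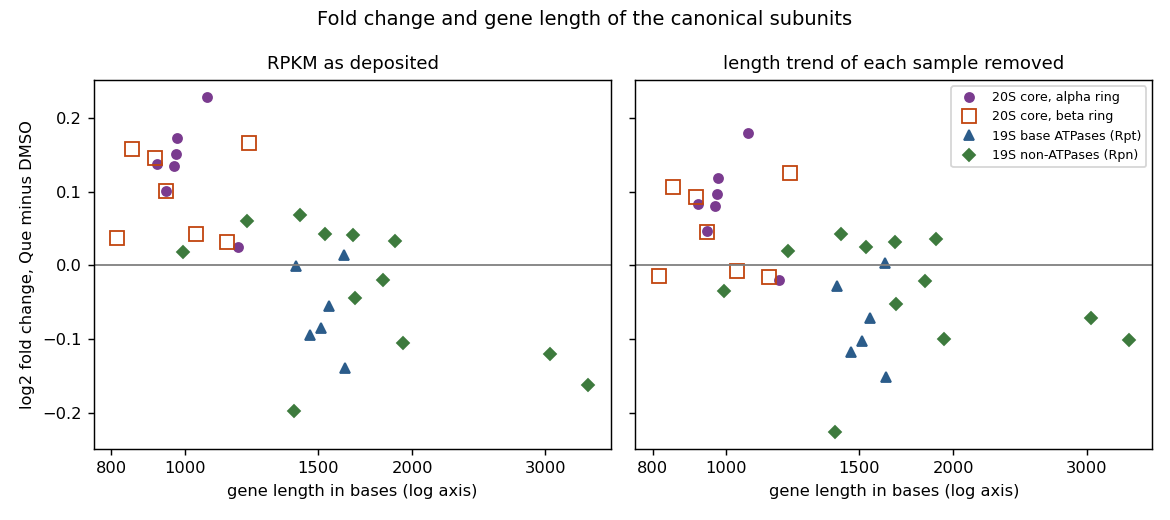
Log2 fold change, Que minus DMSO (y axis), against gene length in bases (log axis) for the 32 canonical subunits, by class, with RPKM as deposited on the left and after removal of each sample's length trend on the right. All 14 core genes are above 0 on the left and 10 of them on the right.

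Other gene groups of large complexes gave a frame for these directions. Of 83 cytosolic ribosomal protein genes tested, 81 had a log2 fold change above 0, with a median of 0.16, and of 20 genes of the V-ATPase, the proton pump, 14 did, with a median of 0.02. With the length trend removed these medians were 0.12 and 0.05. The directions of the core genes were thus shared by the ribosomal proteins, and no difference between these groups was tested.

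Prosbeta3 and Rpn5 varied most among samples. Prosbeta3 (chromosome 3R, 9005313 to 9006226) had 14.3, 23.9, 39.8 and 34.3 RPKM in Que 1 to 4, against 16.4, 24.5, 27.4 and 28.4 RPKM in DMSO 1 to 4. Rpn5 (chromosome 3R, 5789493 to 5791569) had 34.4, 71.2, 89.5 and 73.8 RPKM in Que 1 to 4, against 42.5, 73.0, 64.6 and 73.8 RPKM in DMSO 1 to 4. In both genes replicate 1 was the lowest sample of its group, in Que and in DMSO alike. The coefficient of variation over the 8 samples was 32.4% for Prosbeta3 and 27.7% for Rpn5, whereas it was 6.19% to 18.4% in the other 30 canonical genes. Their fold changes were accordingly imprecise. Prosbeta3 had a log2 fold change of 0.15 (SE 0.31, 95% interval -0.55 to 0.85), which was -0.06 without Que 3 and -0.03 without DMSO 1, and Rpn5 had 0.03 (SE 0.30, 95% interval -0.63 to 0.70). The least variable genes were ATPases, with 6.19% for Rpt2 and 6.34% for Rpt4.

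**Figure D5:**
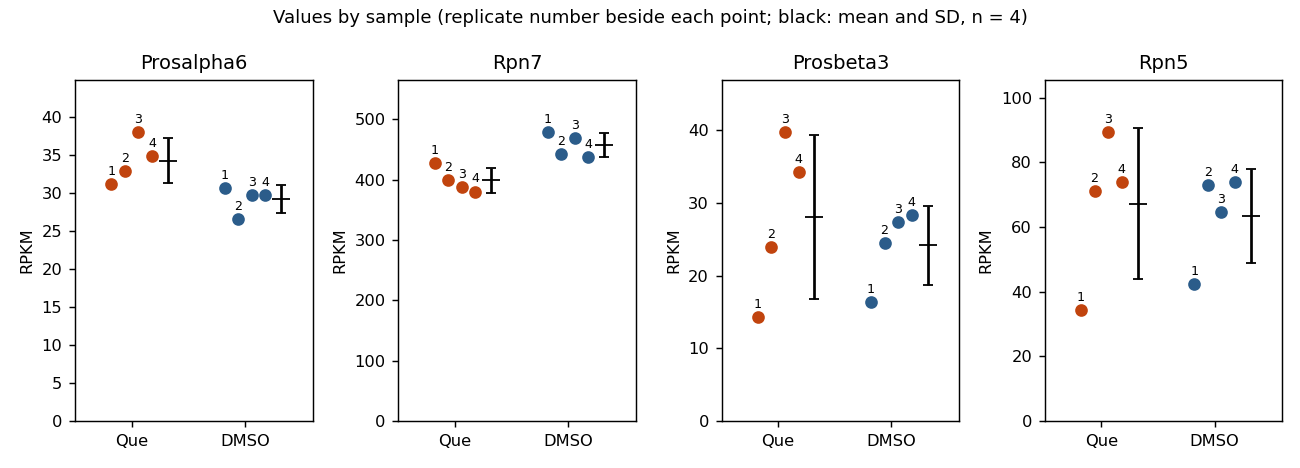
RPKM in each sample of Prosalpha6, Rpn7, Prosbeta3 and Rpn5, with the replicate number beside each point, Que left of DMSO, and black bars for the mean and SD (n = 4 each). The groups do not overlap in Prosalpha6 and Rpn7, and replicate 1 is lowest in both groups of Prosbeta3 and Rpn5.

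The 11 paralogs found by the symbol rule held few reads in these female midguts. All 11 together held 229 reads in the 4 Que samples and 253 in the 4 DMSO samples, against 555274 reads with Que and 615755 with DMSO for the canonical members. Low reads do not hold for every relative of the subunits. Prosalpha1R, listed as CG30382 and so outside the rule, held 1771 reads with Que and 1988 with DMSO. RefSeq has 48 gene symbols that meet the rule, so the 43 members do not cover them all. Prosalpha3T, Prosalpha4T1, Prosalpha4T2, Prosbeta2R1, Prosbeta2R2, Prosbeta5R2 and Rpn12R had at most 2 reads in any sample and 2 to 7 over all 8. They did not reach the minimum of 0.1 RPKM and were not tested, and the detection limit of 3 reads amounted to 0.0549 to 0.124 RPKM for them. This limit covers counting error only.

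The remaining paralogs were Rpt3R, Rpt4R, Rpt6R and Rpn13R. Rpt3R, a copy of the ATPase Rpt3, had 49, 24, 27 and 19 reads in Que samples, against 28, 38, 56 and 32 reads in DMSO samples. This was 0.662 ± 0.297 RPKM in Que guts and 0.784 ± 0.257 RPKM in DMSO guts (SD, n = 4 per group), with a log2 fold change of -0.25 (SE 0.31, 95% interval -0.95 to 0.45). Its size depended on single samples, with -0.066 without DMSO 3, -0.084 without Que 4 and -0.48 without Que 1, and on the fit, with -0.11 at a pseudocount of 1 and -0.55 with array weights. The groups overlapped in Rpt3R, whose canonical counterpart Rpt3 had 120 ± 12.1 RPKM in Que guts and 124 ± 7.81 RPKM in DMSO guts (SD, n = 4 per group). Rpt3R shares 20 bases with CG8412 on the opposite strand, which held 747 reads per sample on average against 34.1 for Rpt3R. As the strand setting is not given, some reads of Rpt3R may belong to CG8412, and their share was not tested. Rpn13R had 8, 20, 8 and 7 reads in Que samples and 15, 6, 6 and 2 reads in DMSO samples, a log2 fold change of 0.54 (SE 0.41, 95% interval -0.40 to 1.47) with an exact two-sided permutation p = 0.286. This value was 0.13 at a pseudocount of 1, 0.83 at a pseudocount of 0.01 and 0.82 by voom, and ranged over left-out samples between 0.27 without DMSO 4 and 0.84 without DMSO 1. Rpt4R had 8, 14, 1 and 12 reads in Que samples and 12, 2, 13 and 7 in DMSO samples, a log2 fold change of 0.03 (SE 0.47) whose sign depended on single samples, with -0.15 without Que 2, -0.12 without Que 4 and -0.26 without DMSO 2. Rpt6R had 0 to 12 reads per sample, with a 95% interval of -0.99 to 1.21. Of 8 testis markers, 5 were in the table, and none reached 0.12 RPKM in any sample. The summed level of 5 ovary markers was 2.16 to 2.65 RPKM with Que and 1.89 to 5.30 RPKM with DMSO. The upper end was DMSO 1 alone, where osk had 154 reads, against 0 in each Que sample and 2 to 4 in the other DMSO samples. Of these 5 markers, 3 reached the minimum level for the test. The groups did not overlap in grk, higher with Que. They did not overlap in osk either, lower with Que, but osk reached the minimum of 0.1 RPKM only through DMSO 1. Its 2 to 4 reads in the other DMSO samples lay near the detection limit of 3 reads. The separation in osk is therefore not read as a group difference. Among all genes tested, 1.26% had all 4 Que samples below all 4 DMSO samples and 0.876% had them above. The part of these markers in the levels of the paralogs was not tested.

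Many subunit genes lie close to neighbours. Exons of 14 members, 13 of them canonical, share between 1 and 182 bases with a gene on the opposite strand. The longest overlap was that of Rpt6 with CG1801. Rpn9 shares 125 bases with CG10365, Rpt2 shares 116 bases with CG31142, and Rpt4 shares 93 with wuho. Prosbeta3 shares 19 bases with CG11980, and Prosalpha6, Rpn2 and Rpn5 share none. Reads within these overlaps could belong to either gene, which leaves the values of these members uncertain to that extent.

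Genes that act with the proteasome were compared in 4 lists, and none of their 25 genes passed an adjusted p of 0.05. Among 9 partners and assembly factors, 6 were above 0 and 3 below, with a median log2 fold change of 0.04. CG12096, a homolog of a chaperone of base assembly, was the only gene of the 4 lists with an unadjusted p under 0.05. By the same limma threshold, 1.68% of all genes tested were higher with Que and 1.93% lower, so 1 of 25 genes is near the background share. CG12096 had 1.53, 1.33, 2.04 and 1.87 RPKM in Que samples, against 1.15, 1.21, 1.25 and 1.34 RPKM in DMSO samples. Its groups overlapped only between Que 2 and DMSO 4, and the log2 fold change was 0.41 (SE 0.17) with unadjusted p = 0.0406 and adjusted p = 0.946 by limma, and exact two-sided permutation p = 0.0571. Sem1, the smallest lid subunit, was the highest of the list with 547 ± 114 RPKM in Que guts and 557 ± 83.1 RPKM in DMSO guts (SD, n = 4 per group). The core assembly chaperone Pomp had 27.1 ± 2.71 RPKM in Que guts and 24.7 ± 1.95 RPKM in DMSO guts (SD, n = 4 per group).

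Of 5 genes that supply or activate ubiquitin, 2 were above 0 and 3 below, with a median of -0.11. The 2 above 0 were RpS27A and RpL40, which encode ubiquitin fused to a ribosomal protein. RpS27A was the highest, with 675 ± 84.7 RPKM in Que guts and 598 ± 74.7 RPKM in DMSO guts (SD, n = 4 per group). The polyubiquitin gene Ubi-p63E had 374 ± 52.0 RPKM in Que guts and 403 ± 41.3 RPKM in DMSO guts (SD, n = 4 per group). Of 7 shuttle factors and components of the segregase that extracts ubiquitylated proteins, 4 were above 0 and 3 below, with a median of 0.0020. The shuttle factor Ubqn was the highest with 93.6 ± 25.2 RPKM in Que guts and 106 ± 11 RPKM in DMSO guts (SD, n = 4 per group). Of 4 regulators, 3 were above 0 and 1 below, with a median of 0.06. The transcription factor cnc, which induces proteasome genes in flies, was the one below, with 38.7 ± 9.61 RPKM in Que guts and 43.6 ± 4.32 RPKM in DMSO guts (SD, n = 4 per group). Its partner maf-S had 576 ± 96.5 RPKM in Que guts and 516 ± 31.0 RPKM in DMSO guts, and its inhibitor Keap1 had 5.62 ± 0.413 RPKM in Que guts and 5.30 ± 0.593 RPKM in DMSO guts (SD, n = 4 per group). In none of these 4 regulators did the groups separate.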

How the data were processed

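Midgut RNA of 8 samples was sequenced as read pairs. Per the labels and the methods, the authors filtered the reads with Trimmomatic 0.36, mapped deduplicated consensus sequences to the ISO1 genome with STAR 2.5.3a, counted them per gene with featureCounts and deposited RPKM values. The annotation release, strand setting and treatment of reads with several alignments are not given in the sources used here. RPKM multiplied by length gave whole reads for 100% of the values (tolerance 0.001). The number of columns left unused was 0.

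Genes whose mean over the samples reached 0.1 RPKM were fitted on the log2(RPKM + 0.1) scale by limma (version 3.58.1, with statmod version 1.5.0, under R version 4.3.3), using an intensity trend and Benjamini-Hochberg adjustment over all genes tested. A fold change on this scale understates that of genes near 0.1 RPKM. Permutation tests were exact and used SciPy (version 1.17.1) with NumPy (version 2.4.6). Tables were handled in pandas (version 2.3.3) and plots drawn in matplotlib (version 3.10.9), both under Python (version 3.11.15). Length trends were removed by loess (span 0.5) on genes longer than 300 bases. The fit was tested on simulated counts without a length trend or shared variation between samples, and with changes larger than those of the members. The real samples differ in these respects, so that test does not show how the fit behaves for them. The members, gene lists and tests were chosen with earlier results of these data known.

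Values in every sample were given for the highest and the lowest canonical member of each class, the 2 with the smallest p of each class, members with an unadjusted p under 0.05 and the 3 paralogs with the most reads. Outside this rule, Prosbeta2 is given in every sample for its role and Rpn5 for its spread, and single values of Rpn8 and Rpn10 to Rpn13 for Que 3. From the other lists, genes with an unadjusted p under 0.05, the highest of each list and a few chosen for their role are named.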

Additional observations from a re-analysis of the deposited data

Results flagged for a closer look

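In 2 of 70 groups of 4 samples, each a member within Que or DMSO, 1 sample stood well away from the remaining 3. By chance alone about 3.5 such groups would be found. Prosbeta1, the caspase-like subunit, was low in DMSO 2, with 72.0 RPKM against 81.4 to 83.1 RPKM in the other DMSO samples, a gap of 0.848 of the group's range in RPKM. Rpn8, a lid subunit, was high in DMSO 3, with 172 RPKM against 153 to 156 RPKM in the other DMSO samples, a gap of 0.848 of the range.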

How the results depend on the processing

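Of the 36 members tested, 0 passed an adjusted p of 0.05 in any fit, and 2 passed an unadjusted p of 0.05 in the reported fit. This count was 1 with a filter at a mean of 1 RPKM, 1 without a filter and 1 with median-of-ratios scaling, Prosalpha6 in each, and 0 with voom on the recovered reads. It was 0 to 2 when each sample was left out. Prosbeta5 had a log2 fold change of -0.015 with the length trend removed, and -0.025 to 0.11 over left-out samples. Rpn9 had 0.0091 with array weights, and -0.088 to 0.00099 over left-out samples. Rpt4R had -0.019 with a pseudocount of 0.01, and -0.26 to 0.38 over left-out samples, and Prosbeta3 had -0.055 to 0.43 over left-out samples. The cause was not tested. For each gene, the mean of its group was subtracted from the log2 levels, and the deviations left were correlated over 9154 genes. Same-number correlations of these deviations between Que and DMSO samples were 0.49, 0.28, 0.068 and 0.015 for replicates 1 to 4. They describe variation within the groups and not the likeness of expression levels between samples. In these deviations, Que 1 correlated best with DMSO 1 and Que 2 with DMSO 2. Que 3 correlated best with DMSO 4 (0.30) and Que 4 with DMSO 3 (0.11). The replicate numbers thus went with shared variation in replicates 1 and 2 but did not pair all samples. With the replicate number as a block, 2 members passed the unadjusted p of 0.05 and none the adjusted p. Of the paralogs, 7 had too few reads to be tested.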

Other observations

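Low read numbers in the table were mostly even. Over all features and samples, 10648 values were of 2 reads, against 5052 of 1 read and 2190 of 3 reads, and 4740 were of 4 reads. How the mates of a pair were counted is not given in the sources used here, and its part in this pattern was not tested.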
